A study of Gallus gallus with 3 samples.

Results

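The vascular microRNA (miRNA) gga-miR-126 and the paired miRNAs gga-miR-221 and gga-miR-222 were measured in leg muscle of chicken embryos, and are written here without the prefix gga that stands for chicken. The rule takes them by name and uses none of their measured values, though they were proposed with earlier results of these data known, and all 3 were found among the 542 chicken miRNAs on the array. The embryos were 14 days old and came from normal recessive White Rock or dwarf recessive White Rock meat-type chickens, and no agent was given to either. By the study's account the dwarf birds have lost a piece of GHR, the gene of the growth hormone receptor, a deletion that takes in the end of its coding sequence and part of its 3′ untranslated region. Both strains were bred over many generations, and the GHR deletion cannot be told apart from other differences between them. The comparison asks how the miRNAs of the muscle differ with the strain during embryonic growth. RNA of 3 embryos made up a pool, and each of 3 arrays held a dwarf pool and a normal pool in different dyes, Cy5 for dwarf on arrays 1 and 3 and Cy3 for dwarf on array 2. The study's methods state that all embryos were female and that skin and bones were removed. The pools of a strain held different embryos, and a pool averages its embryos, so the spread between single embryos was not measured.

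In vertebrates, miR-126 is made mainly by endothelial cells, the lining of blood vessels, and lies in an intron of EGFL7, a gene of the same cells. In mouse and zebrafish it helps vessels keep their integrity by lowering SPRED1, a brake on the signalling of vascular endothelial growth factor. miR-221 and miR-222 are read from one precursor transcript and share their targets. In mammalian cells they lower the cell cycle inhibitor p27 (CDKN1B) and the stem cell factor receptor KIT, and in quail and mouse myoblasts their levels are known to fall when the cells leave the cell cycle and fuse. Leg muscle of an embryo holds vessels, dividing myoblasts and young fibres together. In such bulk tissue, fewer cells of a type and less RNA per cell cannot be told apart.

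The mature sequences on the array are shown because their likeness bears on whether the members can be told apart by hybridisation. Capitals mark the seed, bases 2 to 8 counted from the 5′ end, by which a miRNA mainly finds its targets.
miR-126: uCGUACCGugaguaauaaugcgc
miR-221: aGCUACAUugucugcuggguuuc
miR-222: aGCUACAUcuggcuacugggucuc
miR-221 and miR-222 had the same seed, and no other miRNA on the array carried it. Their first 8 bases were identical, this was also the longest stretch they shared, and 4 edits turn one whole sequence into the other. No other miRNA on the array came closer than 8 edits to miR-221 or 9 edits to miR-222. miR-126 shared its seed with no other miRNA on the array, and its nearest sequence was 8 edits away. The GC content was 47.8% for miR-126, 47.8% for miR-221 and 54.2% for miR-222. In the RefSeq gene table of assembly GRCg7b, used for names only, miR-126 lies within EGFL7, between AGPAT2 and NOTCH1. miR-221 and miR-222 are direct neighbours in that table, and both lie within the protein-coding gene LOC107055472.

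All 3 members were detected in both strains. The detection limit is a signal of 32, the mean spot intensity above the median empty spot of the channel, and all 3 exceeded it in all 6 pools. They are thus among the 127 miRNAs of the 542 whose mean signal over the pools exceeded 32, which were the ones tested. Every one of their spots was also brighter than 99% of the empty spots of its channel, but the brightest empty spot was passed by 1 of 6 spots of miR-221 and 4 of 6 spots of miR-222 in the normal pool of array 2.

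The signal of miR-126 was 3509, 2357 and 10144 in the normal pools of arrays 1, 2 and 3. Among dwarf pools the corresponding signals were 1884, 5067 and 4962. For all 3 miRNAs and on all 3 arrays the pool labelled with Cy3 was the brighter one, whichever strain it came from. The median tested miRNA behaved likewise, with a signal by array of 938, 181.8 and 2600.1 for normal and of 301, 599 and 642 for dwarf. Levels are therefore compared after loess normalization within each array, which reduces the dependence of the ratio on dye and brightness. They are then scaled so that the arrays have the same distribution of mean brightness (Aquantile).

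After normalization, miR-126 had a signal of 3422, 4220.2 and 4042 on the normal side of arrays 1, 2 and 3. On the dwarf side it had 3578, 4712 and 4542. The mean was 3895 ± 419 (SD, n = 3) for normal and 4278 ± 612 (SD, n = 3) for dwarf, with overlap between the groups. Both pools of array 1 were the lowest of the 6. Neighbours in the order of the 6 pools were 0.05 to 0.18 apart on the log2 scale. The SD between single spots of one array, 0.08 to 0.17 for the ratio, does not measure the error of a pool's mean.

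miR-221 had raw signals of 1428, 429 and 3305 in normal pools, by array, and of 523, 799 and 950.1 in dwarf pools. Normalised, the normal pools stood at 1283, 1159.6 and 1083 and the dwarf pools at 1022, 942 and 903. All 3 dwarf pools lay below all 3 normal pools, a pattern that 4.72% of the tested miRNAs had in this direction. The mean was 1175 ± 100.5 (SD, n = 3) for normal and 955 ± 60.8 (SD, n = 3) for dwarf. Neighbours in the order of the pools were 0.06 to 0.15 apart on the log2 scale. The SD between single spots, 0.10 to 0.16 for the ratio, does not measure the error of a pool's mean. The separation of all 6 pools depends on the scaling between arrays. Before it the normalised signals were 1066, 713 and 2035 in normal pools and 849, 579 and 1695 in dwarf pools, and the groups overlapped.

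miR-222 had raw signals of 1211, 534 and 2653 in normal pools, by array, and of 444, 1186 and 631 in dwarf pools. Normalised, the normal pools stood at 982, 1332 and 791 and the dwarf pools at 802, 1307 and 582. Here the order after the scaling between arrays followed the array first and the strain second, with array 2 highest and array 3 lowest in both strains. This order depends on the scaling. Before it the normalised signals were 865, 864 and 1613 in normal pools and 707, 848 and 1188 in dwarf pools, with array 3 highest in both strains. The mean was 1035 ± 275 (SD, n = 3) for normal and 897 ± 372 (SD, n = 3) for dwarf, again with overlap. After the scaling the highest pool was 2.29-fold above the lowest, against 1.42-fold for miR-221 and 1.38-fold for miR-126. This ranking too depends on the scaling. Before it the pools ran from 707 to 1613 for miR-222, from 579 to 2035 for miR-221 and from 2587 to 7598 for miR-126. Both pools of array 2 were only 0.03 apart on the log2 scale, and after the scaling the next pool was 0.41 lower.

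**Figure D1:**
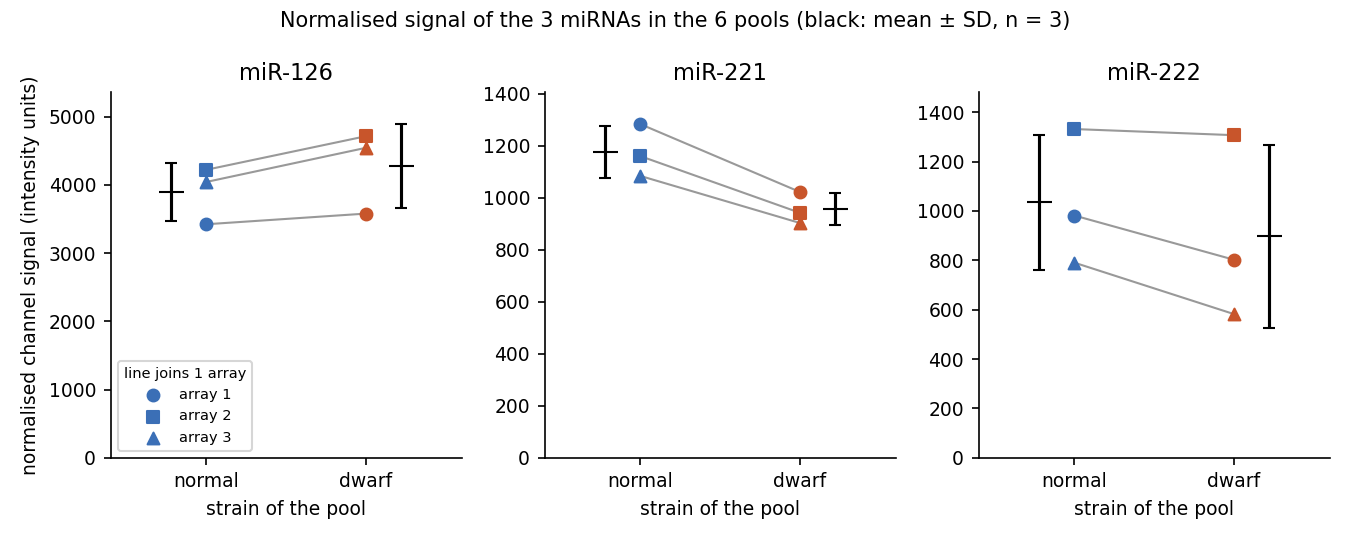
Normalised channel signal (intensity units, linear axis) of miR-126, miR-221 and miR-222 in the 3 normal and 3 dwarf pools. Each grey line joins both pools of 1 array and black bars give the mean ± SD; the 3 lines of miR-221 all run down, from 1083 to 1283 in normal pools to 903 to 1022 in dwarf pools.

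The strains were compared by the ratio of dwarf over normal within each array on the log2 scale, which needs no scaling between arrays. None of the 3 miRNAs passed limma's Benjamini-Hochberg threshold of 0.05, and neither did any other, so that 0% of the 127 tested were called. At an unadjusted p under 0.05 the share was 11%, or 5.51% higher and 5.51% lower in dwarf, and 0 of the 3 members were among those.

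miR-221 had a dwarf level under the normal one on 3 of 3 arrays, with ratios of -0.33, -0.30 and -0.26 on arrays 1, 2 and 3. The mean of -0.30 (SE 0.12, limma adjusted p 0.382, unadjusted p 0.0662) is a signal 1.23-fold higher in normal pools. The 95% interval ran from -0.63 to 0.03. All 18 spots gave a ratio below 0, 6 on each array. The SD between arrays was 0.03, where the median tested miRNA had 0.33, and 1.57% of the tested miRNAs had a smaller one. The standard error is larger than this spread alone gives because limma draws it toward that of all miRNAs.

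The close values of miR-221 on the 3 arrays depended on both the background correction and the loess fit. With the median empty spot subtracted and a floor of 32 they were -0.23, -0.72 and -0.15. With loess fitted only on the tested miRNAs they were -0.05, -0.43 and 0.04, and with arrays centred on their medians instead they were -0.41, -0.04 and -0.27. In the authors' own log2 ratios, which differ in background and normalization alike, they were -0.16, -0.66 and 0.03. The mean was below 0 in each of these settings.

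miR-222 was likewise under the normal level on 3 of 3 arrays, with ratios of -0.29, -0.03 and -0.44 on arrays 1, 2 and 3. The ratio on array 2 lay within the SD between its spots, 0.12, and 3 of its 6 spots were below 0, against 6 of 6 on each of the others. The mean was -0.25 (SE 0.15, limma adjusted p 0.596), a signal 1.19-fold higher in normal pools, with a 95% interval from -0.66 to 0.16. The value of array 2 moved both ways with the processing, to 0.20 with arrays centred on their medians, and to -0.17 with loess on the tested miRNAs, -0.39 with subtraction of empty spots and -0.40 in the authors' table. Without array 3 the mean was -0.16.

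miR-126 was slightly higher in dwarf pools on 3 of 3 arrays, with ratios of 0.06, 0.16 and 0.17 on arrays 1, 2 and 3. The mean was 0.13 (SE 0.12, limma adjusted p 0.824), a signal 1.09-fold higher in dwarf pools, with a 95% interval from -0.20 to 0.47. Of its 18 spots, 3 gave a ratio below 0. Its SD between arrays was 0.06, and 3.15% of the tested miRNAs had a smaller one. This closeness too depended on the processing, with 0.07, 0.20 and 0.45 after median centring and 0.25, 0.0045 and 0.16 in the authors' table. Without any normalization the mean of miR-126 was -0.28, when the median of all tested miRNAs lay at -0.50.

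The ratio had 1 sign on all arrays for each of the 3 members, against 32.3% of the tested miRNAs. Of these, 18.9% were lower on all arrays, as miR-221 and miR-222 were, and 13.4% were higher on all arrays, as miR-126 was. The median ratio of all 127 was -0.05. The single sign of the members depended on the processing. miR-221 was lower on 2 arrays only with loess on the tested miRNAs and in the authors' table, and miR-222 on 2 only with median centring.

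**Figure D2:**
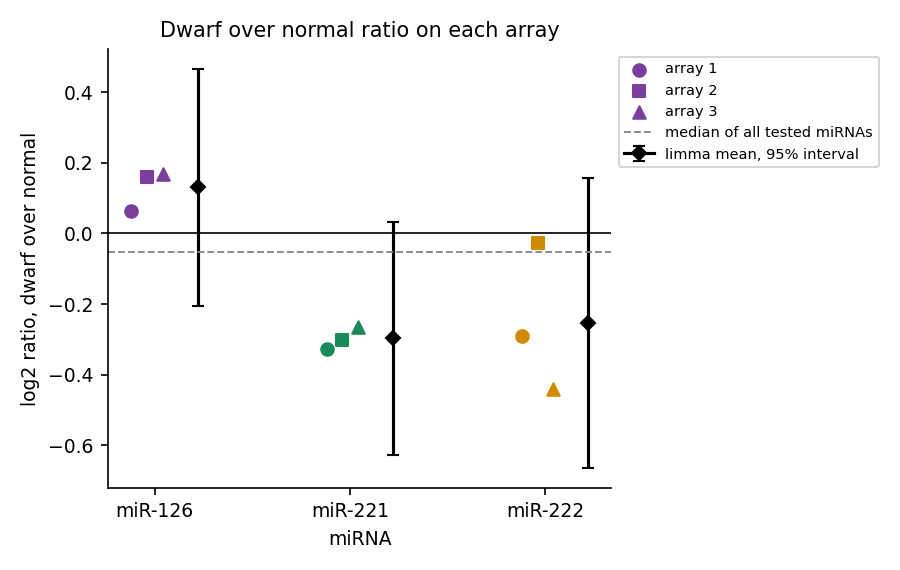
Log2 ratio of dwarf over normal for each member on arrays 1, 2 and 3 (coloured symbols), with the limma mean and its 95% interval (black) and the median of all tested miRNAs (dashed, -0.05). miR-221 sits between -0.33 and -0.26, miR-222 spreads from -0.44 to -0.03, and all 3 intervals include 0.

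**Figure D3:**
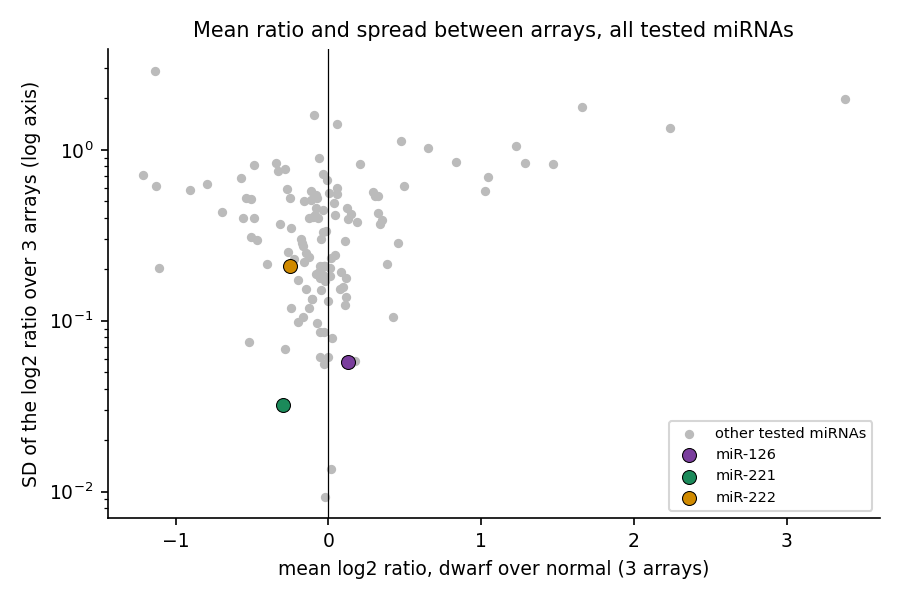
Mean log2 ratio over 3 arrays against the SD of the ratio between arrays (log axis) for the 127 tested miRNAs, with the members in colour. miR-221 and miR-126 lie near the lower edge with SDs of 0.03 and 0.06, and miR-222 lies in the body of the cloud with 0.21.

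Since miR-221 and miR-222 come from one transcript, their ratios were compared within each array. The difference, miR-221 minus miR-222, was -0.04, -0.27 and 0.18 on arrays 1, 2 and 3. Its mean was -0.04 ± 0.23 (SD, n = 3). An exact two-sided test that flips the signs of the arrays gave p = 0.75, where 0.25 is the smallest value 3 arrays allow. The difference lay on both sides of 0 and was smaller than its spread between arrays. Whether the probe of one also captures the other was not tested.

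miR-126 and the pair lay apart on all 3 arrays. The ratio of miR-126 minus the mean of miR-221 and miR-222 was 0.37, 0.32 and 0.52 on arrays 1, 2 and 3. Its mean was 0.41 ± 0.10 (SD, n = 3), with p = 0.25 in the same exact test, its smallest possible value. It was above 0 on 3 of 3 arrays, and its mean stayed between 0.34 and 0.48 over the alternatives of background, normalization, spot summary, source and array tried. The spread between arrays depended on the processing. The SE over the arrays was 0.06 as reported, 0.02 with an offset of 16 and 0.21 with arrays centred on their medians.

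Each miRNA was printed in 6 spots, 3 in the upper and 3 in the lower part of the array. The spot signals of miR-126 varied by 6.24% to 12.2% (SD over mean) within a pool, and those of miR-221 by 4.78% to 16%. For miR-222 the range was 5.69% to 11.6% on arrays 2 and 3, but 31.4% and 33.2% in the normal and dwarf pools of array 1. There the spot in row 95 and column 29 read 445 in Cy3, where the other spots read 1289 to 1466. In Cy5 it read 166.9, where the others read 423 to 587. It was at 0.327 of the median of the other spots in Cy3 and at 0.333 in Cy5, so both channels were reduced alike and its ratio, -0.13, moved less than its level. The spots around it that hold detected miRNAs, among them miR-221 in row 94, were at 0.873 to 0.908 of their other spots in Cy3. Leaving out this spot, a choice made after its value was seen, changed the ratio of miR-222 on array 1 from -0.29 to -0.32 and its mean to -0.26.

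**Figure D4:**
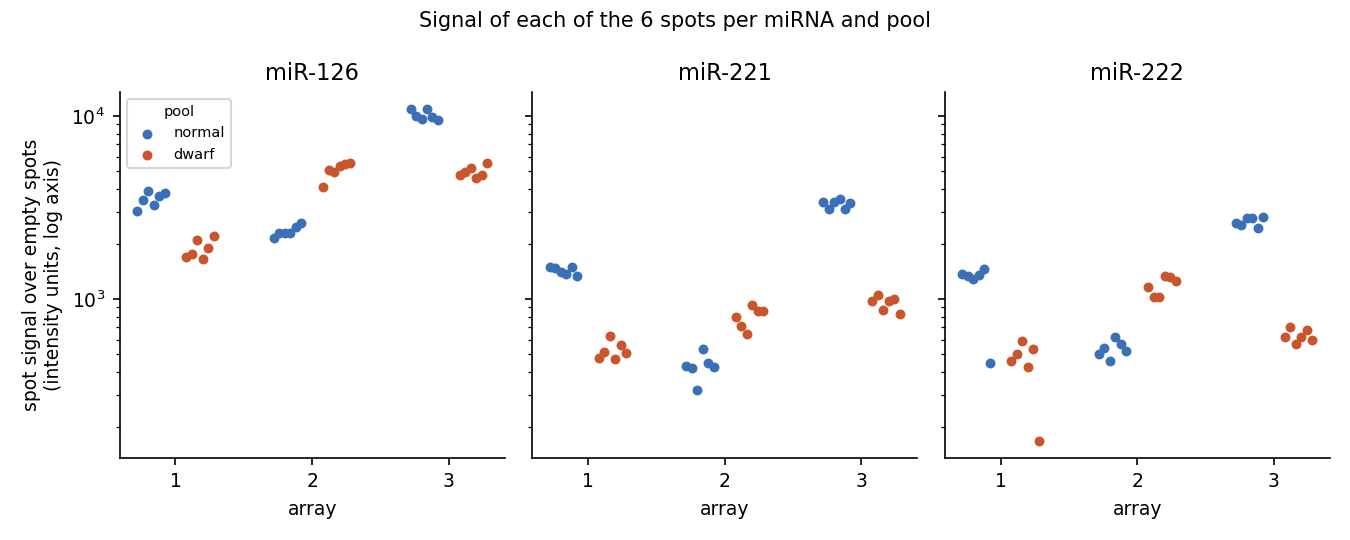
Signal above the median empty spot (log axis) of each of the 6 spots for miR-126, miR-221 and miR-222 in the normal and dwarf pool of each array. The spots of a pool lie close together except for 1 spot of miR-222 on array 1, at 445 in the normal and 166.9 in the dwarf pool.

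The ratio of Cy5 over Cy3 after loess was 0.02 (SE 0.13, limma adjusted p 0.982) for miR-126. It was -0.10 (SE 0.18, limma adjusted p 0.951) for miR-221, and -0.23 (SE 0.15, limma adjusted p 0.745) for miR-222. Dwarf was in Cy5 on arrays 1 and 3 and in Cy3 on array 2 only, so this comparison of dyes holds part of any strain ratio. No miRNA passed the adjusted threshold in this comparison, or 0% of the 127 tested, and 9.45% had an unadjusted p under 0.05. Of the members, miR-222 had the largest such value, -0.23 beside a strain ratio of -0.25, but the unbalanced dyes mix these values. For miR-221 the ratio of Cy5 over Cy3 turned from -0.33 and -0.26 on arrays 1 and 3 to 0.30 on array 2, where the dyes are swapped. This turn depended on the processing. On array 3, where dwarf is in Cy5, the value was 0.04 with loess on the tested miRNAs and 0.03 in the authors' table. With a dye coefficient in the model the strain ratio was -0.30 for miR-221, -0.20 for miR-222 and 0.14 for miR-126.

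The array also holds the other strand of miR-126, named miR-126*, which in vertebrates comes from the same precursor. Its sequence, with bases 2 to 8 in capitals, shows that it is a distinct target.
miR-126*: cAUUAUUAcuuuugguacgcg
Its signal by array was -2.44, 0.42 and 61.8 for normal and -5.15, 5.10 and 19.0 for dwarf. It exceeded the limit of 32 in 1 of the 6 pools, the normal pool of array 3, and was not tested. Of its 6 spots on array 3, 3 in the normal and 5 in the dwarf pool were brighter than 99% of the empty spots, and 0 in each pool of arrays 1 and 2.

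The miRNAs whose normalised levels were most like those of each member over the 6 pools were found by the root mean square (RMS) difference on the log2 scale, each miRNA centred on its own mean. Pools of one array share a hybridisation, so this is a description. Nearest to miR-126 were miR-16c at 0.089, miR-16 at 0.0976 and miR-223 at 0.101, where the median miRNA was at 0.367. miR-16 and miR-16c belong to a family that restrains the cell cycle, and miR-223 is a miRNA of myeloid blood cells. Nearest to miR-221 were miR-1610 at 0.145, miR-1668* at 0.156 and miR-2127 at 0.177, with a median of 0.393. Nearest to miR-222 were miR-1451 at 0.0977, miR-193b at 0.0998 and miR-2131 at 0.204, with a median of 0.527. miR-221 and miR-222 were 0.392 apart, and 62 other miRNAs were closer to miR-221 than miR-222 was. Of the 9 names, 2 were kept without the scaling between arrays, miR-16 and miR-16c beside miR-126, and 5 were kept with a detection limit of 100. Those not kept at this limit were dim. Their mean signal over the pools was 44.9 for miR-1610, 71.3 for miR-1668*, 99.3 for miR-193b and 52.2 for miR-2131.

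The strain ratios of these neighbours ran from -0.40 to 0.17. For miR-16, miR-16c and miR-223 they were 0.17 (SE 0.12), 0.12 (SE 0.13) and 0.01 (SE 0.14). For miR-1610, miR-1668* and miR-2127 they were -0.03 (SE 0.12), -0.08 (SE 0.12) and -0.40 (SE 0.15), and for miR-1451, miR-193b and miR-2131 they were -0.17 (SE 0.12), -0.20 (SE 0.14) and -0.27 (SE 0.16). The smallest limma adjusted p among the 9 was 0.362, for miR-2127.

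The members were set beside other miRNAs known from vessels or vessel growth, in a list of 19 that includes the members themselves. Of the 19, 15 were on the array and 13 were tested, 3 of them the members. Of these 13, 7 had a mean ratio above 0 and 6 below, 0 passed the adjusted threshold and 0 had an unadjusted p under 0.05. The median was 0.02, against -0.05 for all tested miRNAs, and its values on arrays 1, 2 and 3 were 0.06, 0.16 and -0.13. Of the 10 tested miRNAs other than the members, 6 were above 0 and 4 below, with a median of 0.02. miR-27b, which in mouse acts in vessel sprouting and in muscle stem cells, had the highest ratio of the list at 0.34 (SE 0.19, limma adjusted p 0.596). Its ratios were 0.55, 0.55 and -0.09 on the 3 arrays. miR-221 had the lowest ratio of the list. The tested members of the miR-17-92 cluster on the list were miR-17-5p at 0.03, miR-18a at 0.08, miR-20a at 0.02 and miR-92 at -0.11. This cluster is active in dividing and endothelial cells. The mean of miR-92 (SE 0.27) averages ratios of -0.01, -0.73 and 0.40 on arrays 1, 2 and 3. miR-19b, of the same cluster but not on the list, was at 0.21 (SE 0.37), with -0.19, 1.16 and -0.35. miR-19a was under the limit in all 6 pools.

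A second list held 10 miRNAs known from muscle stem cells or dividing myoblasts, all on the array, of which 4 were tested. The 2 above 0 were miR-27b and miR-125b, a miRNA that slows myoblast differentiation in mouse, at 0.08 (SE 0.13). The 2 below 0 were miR-221 and miR-222, so that the median of the 4, -0.09, rests on the members themselves, and that of the other 2 was 0.21. Of the 6 not tested, miR-489, which marks quiescent satellite cells in mouse, and miR-155 exceeded the limit in 1 pool each. miR-31, miR-29a, miR-29b and miR-29c exceeded it in none.

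**Figure D5:**
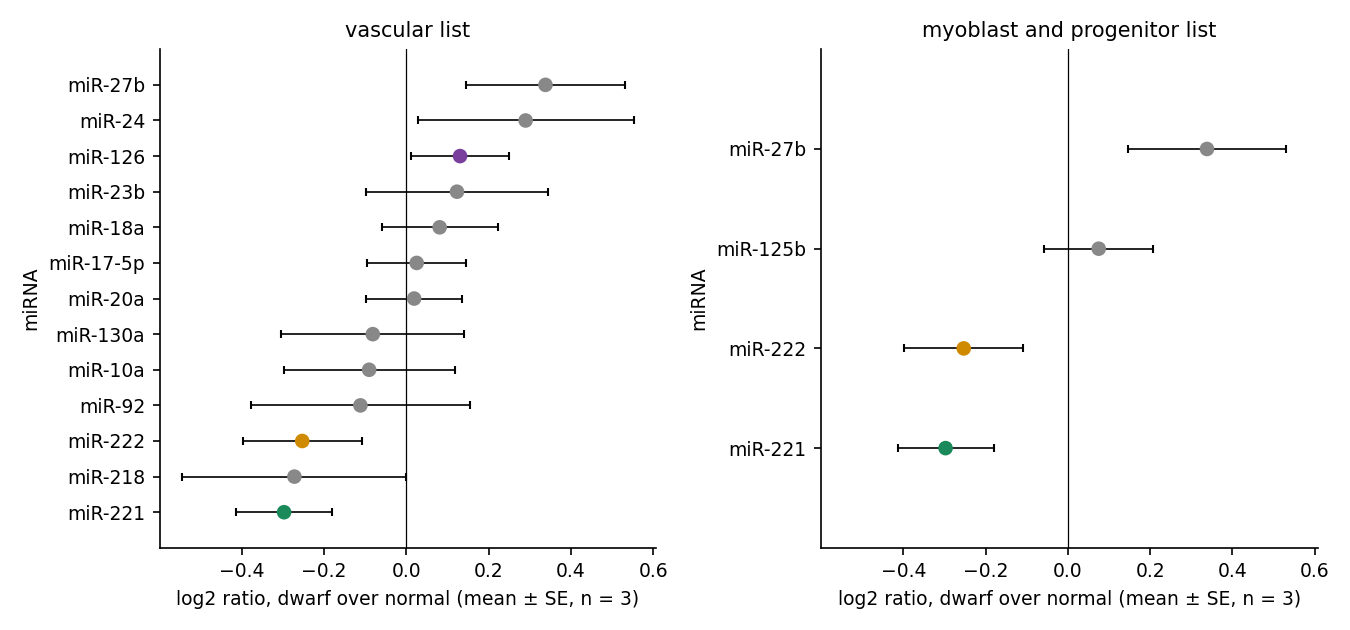
Mean log2 ratio of dwarf over normal ± SE (n = 3 arrays) for the tested miRNAs of the vascular list and of the myoblast and progenitor list, with the members in colour. miR-221 at -0.30 is the lowest in both lists and miR-27b at 0.34 the highest.

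The labelled tissue was checked against miRNAs made by muscle fibres. Of 7 on the array, 6 were over the limit in all 6 pools, with a summed signal of 30235 to 69817 in normal and 14199 to 46692 in dwarf pools, and miR-1b was over it in none. These sums are not normalised, and on each array the pool labelled with Cy3 had the higher sum. The median ratio of the tested muscle miRNAs was -0.84, 0.42 and -0.25 on arrays 1, 2 and 3, on both sides of 0.

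Markers of other cell types were looked at as well, and none passed the adjusted threshold. The summed signals given for them are not normalised and also depend on the dye. Of 3 red blood cell miRNAs, 2 were tested, miR-451 at 1.28 (SE 0.37) and miR-2188 at 1.03 (SE 0.27), both higher in dwarf pools on all arrays with limma adjusted p of 0.324 and an unadjusted p under 0.05. Their summed signal ran from 604 to 4824 in normal and from 1298 to 6401 in dwarf pools, and miR-144 was under the limit in all pools. Of 4 white blood cell miRNAs, miR-223 was at 0.01 (SE 0.14) and miR-146a at 1.23 (SE 0.45, limma adjusted p 0.362). The ratios of miR-146a were 2.25, 1.27 and 0.15 on arrays 1, 2 and 3. The summed signal of the white blood cell miRNAs was 34.4 to 1762 in normal and 409 to 863 in dwarf pools. miR-142-3p and miR-142-5p were under the limit in all pools. All 6 epithelial miRNAs had a mean ratio above 0, and 3 of them, miR-203, miR-200b and miR-429, had an unadjusted p under 0.05, each with a limma adjusted p of 0.324. Their median was 1.56, with a summed signal of 273.6 to 19562 in normal and 28208 to 50581 in dwarf pools. The cartilage strand miR-140* had ratios of -3.48, 2.13 and -2.05, with miR-140 itself under the limit in all pools. The parts of blood, epithelium and cartilage in the ratios of miR-126, miR-221 and miR-222 were not tested.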

How the data were processed

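The authors scanned and digitized the arrays. The deposited scanner values are linear intensities, the mean density of each spot per channel, without a background value beside it. A second deposited table gives log2 ratios that the authors made by background subtraction and LOWESS. Its direction was settled from the intensities, since titles put normal first: its columns follow dwarf over normal, with Pearson r of 0.965, 0.860 and 0.912 over 127 miRNAs of arrays 1, 2 and 3. Their medians over all miRNAs are 0.04, 0.03 and -0.13, and how they were centred is not given in the sources used here. No column was left without a sample.

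Intensities of all 3968 spots were corrected by normexp with an offset of 50, which pulls ratios of dim miRNAs toward 0. Arrays were normalised by loess with weight 0 for control spots, and the 6 spots of a miRNA were averaged. The sign was turned on array 2. Signals are intensities minus the median of 424 empty spots, and the median empty spot read 105 to 170.2 in Cy3 and 36.1 to 57.8 in Cy5. limma 3.58.1 in R 4.3.3 tested the 127 miRNAs with a mean signal over 32, with 2 residual and 1.82 prior degrees of freedom. p-values were adjusted by the method of Benjamini and Hochberg, and intervals are at 95%. The fit was tested on simulated data. Only 3 arrays limit the precision.

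Deviations from the strain means correlated between both pools of an array (0.613, 0.234 and 0.307), which share a hybridisation, and the within-array ratio uses this pairing.

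Described in full were the 3 members, and beside them the other strand, the 3 miRNAs most like each, those of the same seed, and the highest and lowest of the vascular and progenitor lists. Other miRNAs of these lists and the cell type markers are named as members of their lists, and miR-19b beside its cluster. Members and lists were chosen with earlier results of these data known. The settings varied were the background (subtraction with a floor of 32, or an offset of 16), the normalization (median centring, none, or loess on tested miRNAs), the summary of spots by their median, the filter (none, or a limit of 100), and the model (dye coefficient, no moderation, both channels apart, or the t-test of the methods). The authors' table was used as another source of ratios, and each array was left out in turn.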

Additional observations from a re-analysis of the deposited data

How the results depend on the processing

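miR-221 and miR-222 kept a mean ratio below 0 in all alternatives tried, 16 for miR-221 and 17 for miR-222. The changes of filter and moderation, the separate channels and the methods' t-test leave the mean of a member as it is, so its sign could not change there. Single arrays did change sign. miR-221 was at 0.04 on array 3 with loess on the tested miRNAs, and miR-222 at 0.20 on array 2 with median centring. For miR-221 the mean ran from -0.76 without normalization to -0.15 with loess on the tested miRNAs, and from -0.31 to -0.28 without each array, with an adjusted p of 0.204 to 0.993. For miR-222 it ran from -0.75 without normalization to -0.11 with loess on the tested miRNAs, and from -0.37 to -0.16 without each array, with an adjusted p of 0.347 to 0.997. miR-126 stayed above 0, up to 0.24 with median centring and from 0.11 to 0.16 without each array, except for -0.28 without normalization, where the median of all tested miRNAs moved from -0.05 to -0.50. Its adjusted p ran from 0.571 to 0.997. None of the 3 passed the adjusted threshold under any alternative. The unadjusted p of miR-221 was under 0.05 without moderation (0.00391), with no filter (0.000752) and in the methods' t-test (0.0279), and that of miR-126 with no filter (0.0234). With no filter the fit of 542 also takes in undetected miRNAs, and the SE of miR-221 was 0.022, against 0.117 as reported. Without moderation the SE rests only on the arrays' close values, which depended on the processing. The methods' t-test took both pools of an array as independent. It also used signals scaled between arrays, on which the separation of the pools of miR-221 depends.

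The count of miRNAs past the adjusted threshold, 0, became 2 with median centring (miR-200b and miR-203) and 3 with the dye coefficient (miR-203, miR-205a and miR-451), markers of epithelium or red blood cells, and the cause was not tested. The methods' t-test called 1 miRNA at its stated, unadjusted threshold and 0 after Benjamini-Hochberg adjustment. No member was among these. Separate channels with no replicate block gave 0 and changed no call of a member. The difference of miR-221 and miR-222 changed sign to 0.0040 in the authors' table and ran from -0.16 to 0.070 without each array. That of miR-126 and the pair ran from 0.35 to 0.45 without each array. The median of the vascular list ran from -0.40 without normalization to 0.12 with median centring. That of the progenitor list, -0.09 as reported, was -0.51 without normalization, 0.011 with median centring and -0.18 in the authors' table. Of the 9 most similar miRNAs, 2 were kept without Aquantile and 5 with a limit of 100. Aquantile changes no ratio within an array.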
